A study of Rattus norvegicus with 6 samples.

Results

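The genes that copy DNA and supply its nucleotides were followed in synovial fibroblast-like cells, grown as adherent cultures out of the joint lining, of female Wistar rats with collagen-induced arthritis. The set was drawn up as 46 genes by known function: 5 enzymes of nucleotide supply, 9 polymerase and primase subunits, 6 genes of the sliding clamp and its loader, 3 subunits of RPA, 4 genes of fragment maturation, 6 origin recognition subunits, 7 genes of helicase activation, 4 of chromatin copying and 2 others. Where a symbol had several transcript rows, the most abundant stood for the gene. Of the 46, 44 were among the 16499 symbols of the table and 43 passed the filter of 1 CPM (read counts relative to the scaled library size) in both libraries of at least 1 condition. Tk1 and Chaf1a were not analysed here, and Lig1 did not pass the filter. Exo1, Gins1, Cdc45 and Chaf1b met the filter in FBS alone (4 of the 43, against 1.43% of all features tested), so they could enter the tests only by being high there, and Dut met it in MS+ alone.

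The cells, taken at disease onset before therapy, were divided over 3 culture media, which gave 6 libraries with 2 in each condition. The sample descriptions carry the same 2 source codes, RA1 and RA2, in every condition; these were read as 2 rats, called rat 1 and rat 2, although no source says so in words. The medium held fetal bovine serum (FBS), blood serum of untreated animals (MS−), or blood serum of animals at day 18 of mechanical stimulation with a needle (MS+; the labels call it acupuncture, AP). The number of serum donors is not given. The sources give the MS− serum donors both as arthritic animals left untreated and as animals bled ahead of therapy, and 1 label field calls them healthy; the point could not be settled. No treatment was given to the cells other than the serum, so MS+ against MS− compares sera of the same species, while either of them against FBS also compares rat with bovine serum. If MS− serum was drawn ahead of therapy, or from healthy animals, MS+ and MS− also differ in day of bleeding or in disease. Such a difference could not be told apart from stimulation.

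DNA replication starts at origins that the origin recognition complex (ORC) marks. The kinase CDC7 with its partner DBF4, together with CDC45 and the GINS complex, then turns the loaded MCM ring into a running helicase. Primase and polymerase alpha lay down primers, polymerases delta and epsilon extend them on the clamp PCNA, which the RFC complex loads, and RPA covers the single strands. FEN1, RNase H2, EXO1 and DNA ligase I finish the fragments, while UHRF1, DNMT1 and CAF-1 copy DNA methylation and nucleosomes onto the new strands. Ribonucleotide reductase (RRM1 with RRM2), thymidylate synthase (TYMS) and the dUTPase DUT set the supply of deoxynucleotides. Many of these genes are known targets of E2F transcription factors and are transcribed mainly as cells enter S phase. In bulk RNA, fewer cells in S phase and less RNA of these genes per cell cannot be told apart.

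Promoters of 41 of the 46 genes were found by symbol in the RefSeq promoter table of assembly GRCr8, and those of Rrm2, Rpa3, Orc1, Orc4 and Gins4 were not matched. The 250 bases upstream of each annotated start were searched on both strands for an E2F motif, written as TTCCCGC or as TTGGCGC, or as TTCGCGC or as TTGCCGC, with overlapping matches allowed. It was present in 13 of the 41 (31.7%), in 7.97% of the 27457 promoters of the table, and in 14.4% of the 7000 promoters of tested symbols. By these words, 4 of 15 genes with a lower call against FBS in either rat serum (26.7%) and 8 of the other 23 tested (34.8%) held it. With calls from the fit that has the rat as a block, these were 6 of 27 (22.2%) and 6 of 11 (54.5%). The words leave out close variants such as TTTGGCGGG. That variant is present in the windows of Cdc45 and Pola2, both called lower in MS− and counted here as without the motif. Variants were not counted in any group. With so few genes and so short a word list, these shares cannot decide whether the motif goes with a fall. A CCAAT box (CCAAT, both strands) was held by 18 of the 41 (43.9%, against 36.1% of tested symbols), a GC box (GGGCGG) by 25 (61% against 61.1%), and a CHR element (TTTGAA or TTCGAA) by 6 (14.6% against 11.3%).

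The windows below are shown because their genes mark the range of the results: Rrm1, Fen1 and Pola1, which were lower in both rat sera than in FBS and hold the motif, Tyms, which holds it and was higher, and Uhrf1, which was lower in both, in which none of the 4 words was found. Each is the RefSeq strand of the gene, 5′ to 3′, ending at the base before the start, with E2F matches in capitals; a match is a run of letters, not a shown binding site.
Rrm1 (chr1:166235654-166235903, plus strand, GRCr8): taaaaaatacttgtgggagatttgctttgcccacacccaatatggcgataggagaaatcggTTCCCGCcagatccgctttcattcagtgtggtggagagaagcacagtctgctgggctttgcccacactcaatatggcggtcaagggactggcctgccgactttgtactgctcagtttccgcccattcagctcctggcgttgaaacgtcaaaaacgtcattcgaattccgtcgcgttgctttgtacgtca
Fen1 (chr1:216274397-216274646, minus strand): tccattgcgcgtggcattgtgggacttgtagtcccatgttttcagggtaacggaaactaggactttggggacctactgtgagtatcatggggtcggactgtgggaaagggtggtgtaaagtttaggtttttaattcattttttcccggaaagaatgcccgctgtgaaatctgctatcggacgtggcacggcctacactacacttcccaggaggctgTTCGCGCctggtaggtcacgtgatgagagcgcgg
Pola1 (chrX:62342356-62342605, minus strand): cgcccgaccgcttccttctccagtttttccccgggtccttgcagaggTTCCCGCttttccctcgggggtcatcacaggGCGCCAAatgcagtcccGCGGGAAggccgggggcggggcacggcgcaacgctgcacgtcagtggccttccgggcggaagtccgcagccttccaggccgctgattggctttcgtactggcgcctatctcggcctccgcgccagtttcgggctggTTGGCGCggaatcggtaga
Tyms (chr9:120776084-120776333, minus strand): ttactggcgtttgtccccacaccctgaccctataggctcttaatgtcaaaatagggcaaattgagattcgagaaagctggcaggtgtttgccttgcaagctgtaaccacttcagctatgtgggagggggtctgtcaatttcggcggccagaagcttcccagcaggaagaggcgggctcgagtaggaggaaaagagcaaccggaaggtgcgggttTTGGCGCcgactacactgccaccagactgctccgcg
Uhrf1 (chr9:1221813-1222062, plus strand): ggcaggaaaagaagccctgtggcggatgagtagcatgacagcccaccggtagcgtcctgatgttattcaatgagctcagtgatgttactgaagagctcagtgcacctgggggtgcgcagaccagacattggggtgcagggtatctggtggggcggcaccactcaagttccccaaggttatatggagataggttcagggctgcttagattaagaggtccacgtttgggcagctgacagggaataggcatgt

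Library depth was 5463316 to 5991889 reads, and a floor of 3 reads per library corresponded to 0.491 to 0.551 CPM (counting error only). All 10 fibroblast markers passed the filter, with a summed level of 78855 to 85736 CPM in FBS, 60356 to 62947 in MS− and 69162 to 71639 in MS+. Nearly all of this was Col1a1, Col1a2, Col3a1 and Vim. By mean CPM, Col1a1, Col1a2, Col3a1, Thy1, Pdpn and Prg4 were highest in FBS. Vim (11733 in FBS, 13442 in MS− and 15265 in MS+), Pdgfra, Cdh11 and Fap were highest in MS+. Prg4 had 7 to 20 reads, and its row overlaps that of Tpr. The 8 macrophage markers in the table summed to 13.8 to 14.6 CPM in FBS, 17.2 to 20.5 in MS− and 16.3 to 17.7 in MS+; nearly all of it was Cd14, and Emr1, Cd163 and Itgam were at 0 in every library. Ptprc and Lyz2 were also listed at 0, but their rows overlap other rows and shared reads are dropped, so these zeros say nothing of their level. Endothelial and epithelial markers summed to at most 0.166 and 1.28 CPM, and Alas2 and Cd3e, from blood cells, were at 0. These marker sums differed between FBS and the rat sera in the direction given, and their part in the results below was not tested.

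Against FBS, most of the replication genes had lower values in both rat sera. Called at a limma adjusted p under 0.05, 14 of the 43 tested genes were lower and 1, Tyms, was higher in MS+ than in FBS, where 4.66% of all 9820 features were called lower and 4.95% higher. In MS− 12 were lower and 0 higher, against 2.72% and 2.09% of all features. Of the genes that met the filter in FBS alone, 2 are among the 14 (Exo1 and Chaf1b) and 3 among the 12 (these and Cdc45). The median log2 fold change of the 43 was -0.74 in MS+ (-0.80 in rat 1 and -0.69 in rat 2) and -0.84 in MS− (-0.82 and -0.73), on the log2(CPM + 1) scale, where changes of low genes come out too small; over all features the medians were 0.00 and 0.01. Both libraries of MS+ were below both of FBS for 34 genes and above for 3, against 28.3% and 28.4% of all features. In MS− it was 31 below and 3 above, against 24.5% and 27.1%. The genes that met the filter in FBS alone are all among the 34 and among the 31. The FBS libraries are shared by both comparisons, so the values of MS+ and MS− stand side by side and were not taken as separate support.

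The fit with the rat as a block called more genes. It gave 25 lower and 3 higher (Tyms, Orc2 and Orc4) in MS+, against 13.9% and 14.4% of all features, and 26 lower and 2 higher (Tyms and Orc4) in MS−, against 9.63% and 10.8%. By the study rule (unadjusted p under 0.05, at least 2-fold, and at least 1 CPM on average), applied to folds on the log2(CPM + 1) scale, 13 genes were lower in each serum, against 2.92% of all features in MS+ and 2.37% in MS−, and 0 were higher. Applied to folds of limma-voom, the kind of fit the study used, it gave 15 lower in MS+ and 21 in MS−, against 3.88% and 2.99%. Exo1, Gins1, Cdc45 and Chaf1b, which met the filter in FBS alone, are among the 13 in each serum. They are also among the genes called lower with the block in each serum. The unblocked counts fell when a library was left out, in fits where the lone library left in a condition is assumed to vary like the others. The 15 calls in MS+ became 0 without MS+ replicate 1, and 1 without MS+ replicate 2 or either FBS library; the 1 left was Rrm2 each time. The 12 calls in MS− became 2 when either FBS library or MS− replicate 2 was left out. They became 4 when MS− replicate 1 was left out, and 8 when either MS+ library was. Rrm2 and Uhrf1 were among the calls in MS− with any of the 6 libraries left out. The calls over all features fell likewise, from 944 to as few as 25 in MS+ and from 472 to as few as 105 in MS−, whereas the median of the 43 genes stayed between -0.79 and -0.64 in MS+ and between -0.86 and -0.75 in MS−.

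**Figure D1:**
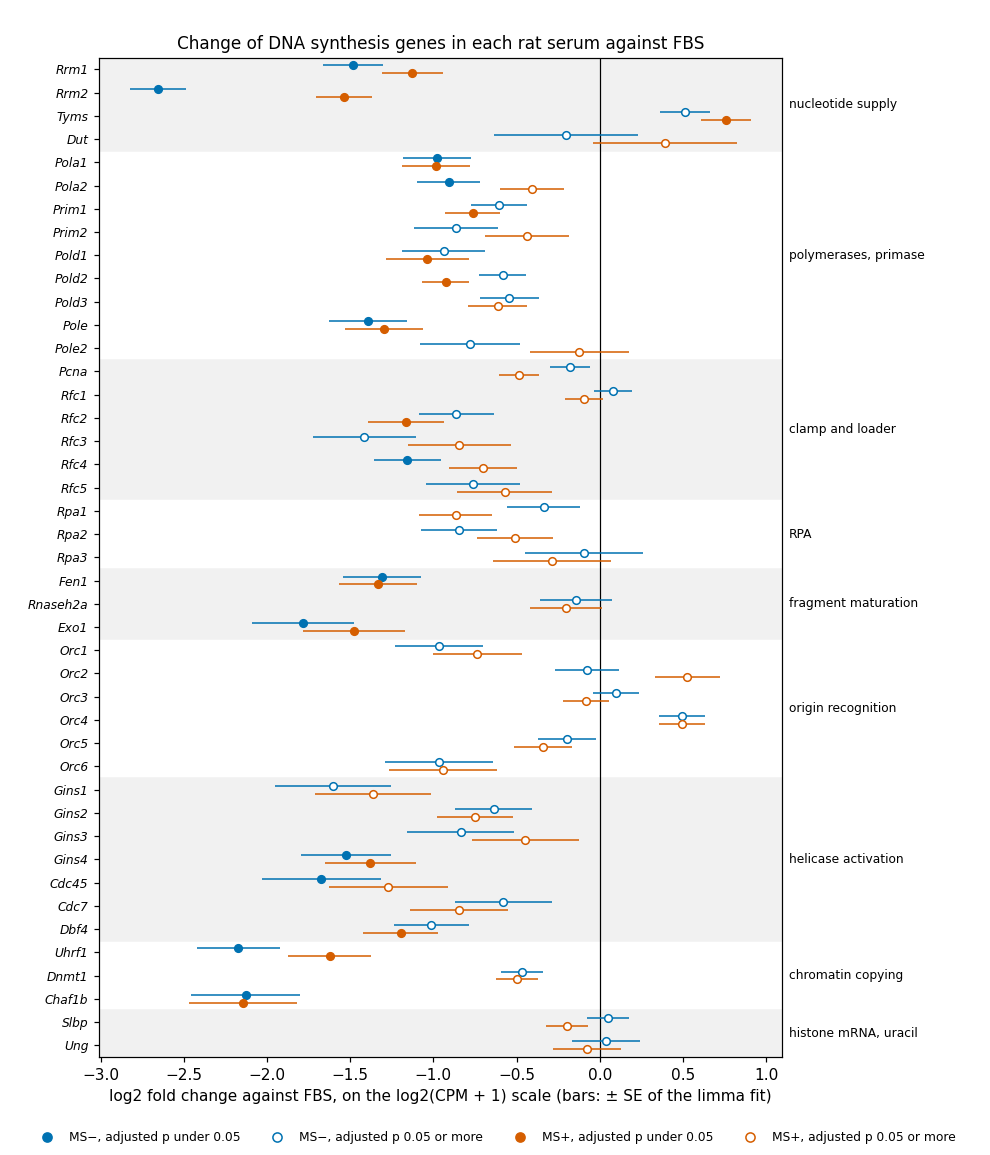
Log2 fold change against FBS of the 43 tested genes on the log2(CPM + 1) scale (x axis), by role, for MS− (blue) and MS+ (orange); bars are ± SE of the limma fit, and filled points are at an adjusted p under 0.05 without the block. Most points lie left of 0, with the lowest at Rrm2, Uhrf1 and Chaf1b, while Tyms and Orc4 lie right of it in both sera.

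Nucleotide supply held the only rise called without the block and, on the log2(CPM + 1) scale, the largest fall in MS−. By the ratio of mean CPM, Exo1, Gins1, Chaf1b and Cdc45, each with fewer than 10 reads in either MS− library, came before Rrm2 there. In what follows, each pair of CPM values gives rat 1 and then rat 2. Rrm2, the small subunit of ribonucleotide reductase whose level limits the enzyme in S phase (chromosome 6, 42350541 to 42359313 in the rn4 build of the files), measured 54.8 and 57.7 CPM in FBS, 7.87 and 8.32 in MS−, and 16.2 and 21.7 in MS+. The 3 conditions did not overlap, with FBS highest and MS− lowest. Rrm2 was 6.95-fold lower in MS− than in FBS, a log2 fold change of -2.66 (SE 0.17, adjusted p 0.00185), and 2.97-fold lower in MS+, at -1.54 (SE 0.17, adjusted p 0.005998) on the log2 scale. With 1 library left out its log2 fold change was -2.69 to -2.62 in MS− and -1.73 to -1.34 in MS+. The call in MS− held under every alternative run (adjusted p 1.63e-20 to 0.0265), and that in MS+ was lost without MS+ replicate 1 (8.16e-08 to 0.0521).

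Rrm1, the large subunit, measured 16.9 and 16.1 CPM in FBS, 5.85 and 4.7 in MS−, and 6.85 and 7.16 in MS+. Each rat serum library was below both FBS libraries, and Rrm1 fell by a log2 fold change of -1.48 (SE 0.18, adjusted p 0.00822) in MS− and -1.13 (SE 0.18, adjusted p 0.0162) in MS+. Tyms, which makes thymidylate and is the target of fluorouracil, went the other way, at 14.4 and 15.4 CPM in FBS, 19.6 and 24.04 in MS−, and 26.3 and 25.5 in MS+. FBS was the lowest in both rats and MS+ the highest, and Tyms rose in MS+ to 1.74 times its FBS level, by 0.76 (SE 0.15, adjusted p 0.0285). In MS− the log2 fold change was 0.51 (SE 0.15, adjusted p 0.118, and 0.0249 when blocked by rat). Dut, which removes dUTP, had few reads: 8 and 4 reads in FBS, 8 and 1 in MS−, and 12 and 6 in MS+. Its 2 overlapping rows share reads that the counting drops, so it is uncertain, and the conditions overlapped, with log2 fold changes of 0.40 (SE 0.43, adjusted p 0.602) in MS+ and -0.20 (SE 0.43, adjusted p 0.842) in MS−.

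**Figure D2:**
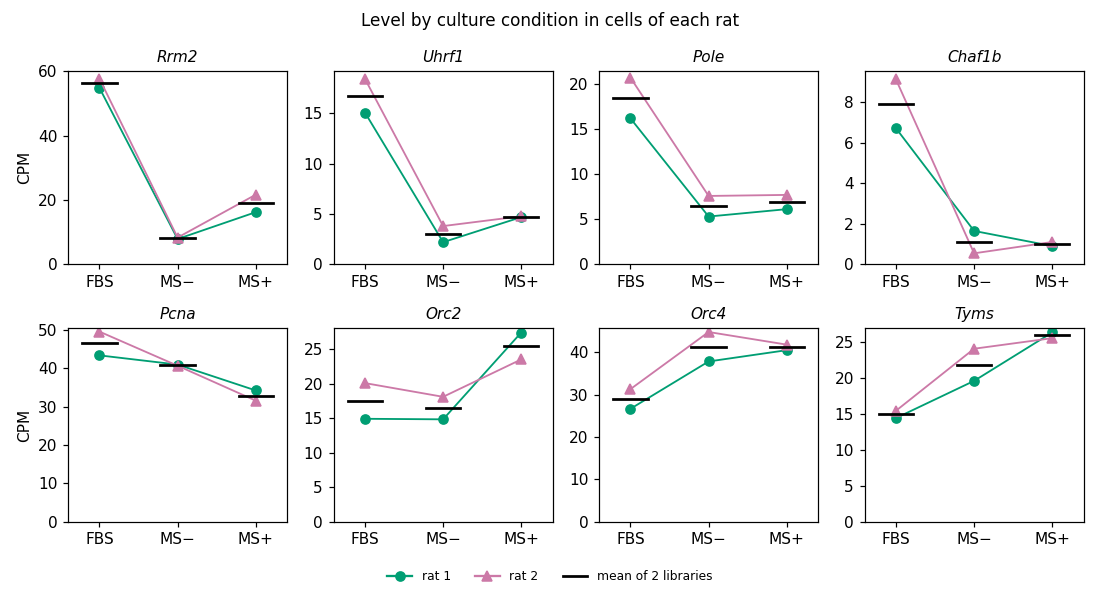
CPM (y axis, from 0) of 8 genes in FBS, MS− and MS+ (x axis), with 1 line per rat and a black bar at the mean of the 2 libraries. Rrm2, Uhrf1, Pole and Chaf1b drop from FBS in both rats, Pcna shows a smaller difference, Orc2 is highest in MS+, and Orc4 and Tyms are lowest in FBS.

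Of the 9 polymerase and primase genes, 5 were called lower in MS+ and 3 in MS−, with 0 higher (4.66% and 2.72% of all features were called lower). All 9 had log2 fold changes below 0 in both sera, with medians of -0.76 and -0.86. Of all 9820 features, 4904 were below 0 in MS+ and 4722 in MS−. Pole, the catalytic subunit of polymerase epsilon, which extends the leading strand, had 16.2 and 20.7 CPM in FBS, 5.31 and 7.59 in MS−, and 6.13 and 7.71 in MS+. All rat serum libraries were well below FBS, by a log2 fold change of -1.30 (SE 0.23, adjusted p 0.0223) in MS+ and -1.39 (SE 0.23, adjusted p 0.0257) in MS−. Its accessory subunit Pole2 was near the filter, at 12 and 10 reads in FBS, 3 and 4 in MS−, and 12 and 6 in MS+, and passed in neither comparison. Pola1, the catalytic subunit of polymerase alpha, had 11.8 and 13.6 CPM in FBS, 5.12 and 6.87 in MS−, and 5.95 and 5.87 in MS+. It fell by -0.98 (SE 0.20, adjusted p 0.0316) in MS+ and -0.98 (SE 0.20, adjusted p 0.04599) in MS−, with no overlap with FBS. Pola2, its regulatory subunit, had 11.5 and 10.1 CPM in FBS, 5.49 and 5.06 in MS−, and 8.65 and 7.16 in MS+. It was lowest in MS−, where it fell by -0.91 (SE 0.19, adjusted p 0.0465), and lay between MS− and FBS in MS+.

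Prim1, the catalytic primase subunit, measured 26.4 and 23.9 CPM in FBS, 14.3 and 18.3 in MS−, and 13.9 and 14.9 in MS+. The FBS libraries were the highest, and the log2 fold change was -0.76 (SE 0.17, adjusted p 0.0369) in MS+ and -0.61 (SE 0.17, adjusted p 0.101, and 0.0155 when blocked by rat) in MS−. Prim2, the large primase subunit, had 4.42 and 4.48 CPM in FBS, 1.83 and 2.17 in MS−, and 3.78 and 2.39 in MS+; only with the block was it called in MS−, at -0.86 (SE 0.25, adjusted p 0.118, and 0.0295 when blocked by rat). Polymerase delta extends the lagging strand. Its catalytic subunit Pold1 had 15.6 and 11.8 CPM in FBS, 8.23 and 5.24 in MS−, and 6.13 and 6.06 in MS+. It fell in MS+ by -1.04 (SE 0.25, adjusted p 0.0475), and in MS− had a log2 fold change of -0.94 (SE 0.25, adjusted p 0.0901, and 0.00437 when blocked by rat). Pold2, the second subunit, measured 26.2 and 27.7 CPM in FBS, 18.1 and 17.2 in MS−, and 14.6 and 12.8 in MS+, with MS+ lowest. It fell in MS+ by -0.93 (SE 0.14, adjusted p 0.0134) and was at -0.58 (SE 0.14, adjusted p 0.0729, and 0.0131 when blocked by rat) in MS−. Pold3 had 12.8 and 14.1 CPM in FBS, 8.41 and 9.4 in MS−, and 9.19 and 7.71 in MS+, and its log2 fold change in MS+ was -0.61 (SE 0.18, adjusted p 0.0797, and 0.0252 when blocked by rat).

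**Figure D3:**
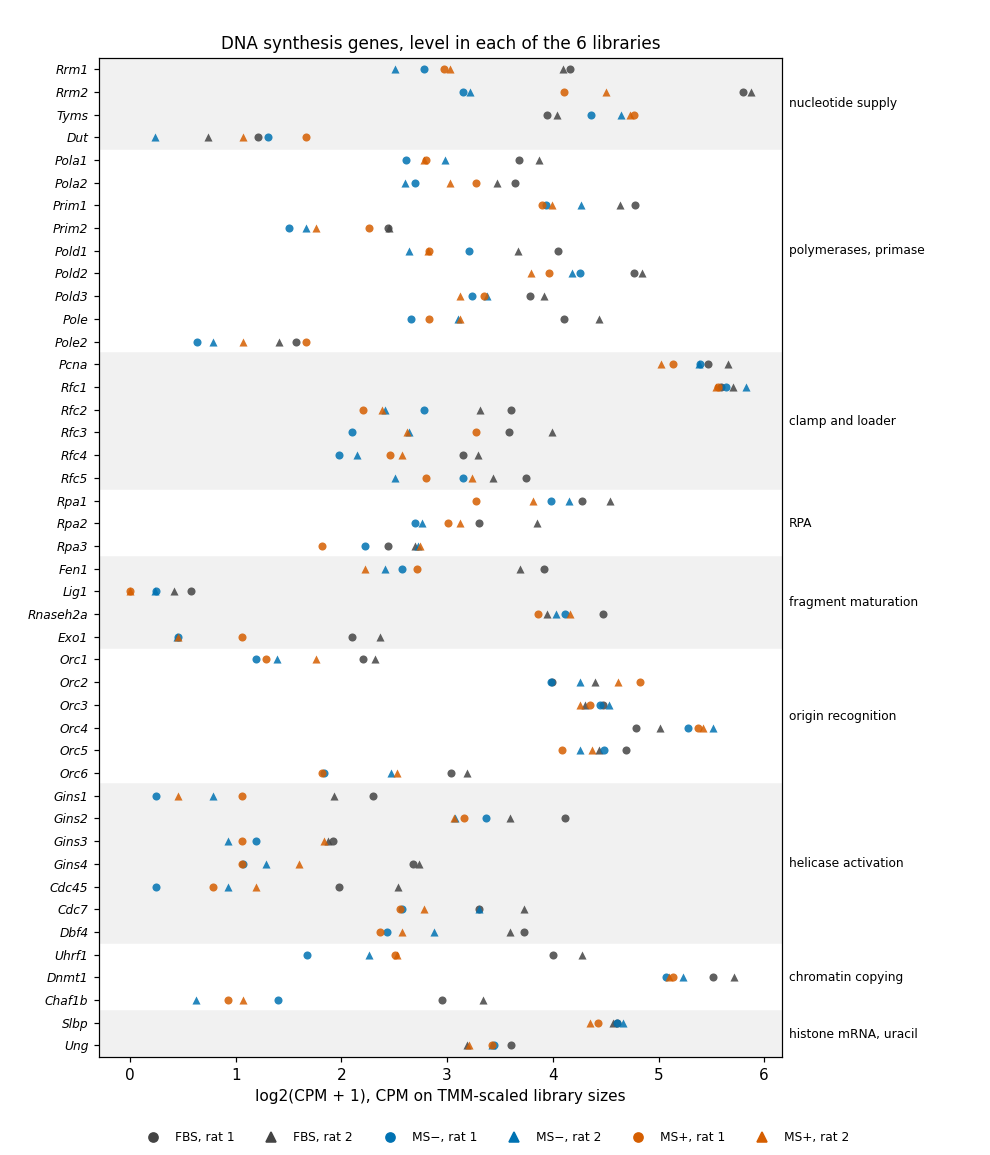
Level of the 44 genes in the table in each of the 6 libraries, as log2(CPM + 1) on the x axis, by role; colours give the condition and symbols the rat. In most rows the grey FBS symbols lie to the right of the others; Tyms and Orc4 show the opposite order, and Rfc1, Orc3, Slbp and Ung lie close together.

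The clamp and its loader were uneven. Pcna, the ring that tethers the polymerases and a common marker of proliferating cells, had 43.4 and 49.6 CPM in FBS, 40.98 and 40.7 in MS−, and 34.2 and 31.6 in MS+. Its libraries followed the order FBS, MS−, MS+ without overlap, but the differences were small: the log2 fold change was -0.48 (SE 0.12, adjusted p 0.0522, and 0.00748 when blocked by rat) in MS+ and -0.18 (SE 0.12, adjusted p 0.448) in MS−. Rfc1, the large loader subunit, was nearly flat, at 47.3 and 51.2 CPM in FBS, 48.7 and 55.9 in MS−, and 46.3 and 45.7 in MS+, with log2 fold changes of -0.10 and 0.08. The small loader subunits were lower. Rfc2 had 11.1 and 8.95 CPM in FBS, 5.85 and 4.34 in MS−, and 3.603 and 4.22 in MS+ and fell in MS+ by -1.16 (SE 0.23, adjusted p 0.0272), with -0.86 (SE 0.23, adjusted p 0.0892, and 0.01303 when blocked by rat) in MS−. Rfc4 had 7.86 and 8.79 CPM in FBS, 2.93 and 3.43 in MS−, and 4.504 and 4.96 in MS+, with its lowest level in MS−, where it fell by -1.16 (SE 0.20, adjusted p 0.0277); in MS+ it was at -0.70 (SE 0.20, adjusted p 0.0782, and 0.0267 when blocked by rat).

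Rfc3 measured 10.97 and 14.9 CPM in FBS, 3.29 and 5.24 in MS−, and 8.65 and 5.14 in MS+. All of its rat serum libraries were below FBS, but those of MS+ differed from each other, and the log2 fold change was -0.84 (SE 0.31, adjusted p 0.133, and 0.0247 when blocked by rat) in MS+ and -1.42 (SE 0.31, adjusted p 0.0524, and 0.0012 when blocked by rat) in MS−. Rfc5 had 12.4 and 9.78 CPM in FBS, 7.87 and 4.7 in MS−, and 5.95 and 8.44 in MS+, and passed only in MS− and only with the block, at -0.76 (SE 0.28, adjusted p 0.188, and 0.0372 when blocked by rat). For RPA, 0 of 3 subunits passed without the block, where 9.61% of all features did in MS+ and 4.81% in MS−. With 3 genes a count of 0 is near those shares. Rpa1, the largest subunit, was lowest in MS+, at 18.3 and 22.2 CPM in FBS, 14.8 and 16.8 in MS−, and 8.65 and 13.03 in MS+, or -0.86 (SE 0.22, adjusted p 0.0567, and 0.00129 when blocked by rat) as a log2 fold change. Rpa2, the subunit phosphorylated under replication stress, was lowest in MS−, at 8.84 and 13.4 CPM in FBS, 5.49 and 5.78 in MS−, and 7.03 and 7.71 in MS+, or -0.84 (SE 0.23, adjusted p 0.0964, and 0.00932 when blocked by rat) as a log2 fold change. Rpa3 overlapped between all conditions, from 2.52 to 5.69 CPM.

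In fragment maturation, Fen1, the flap nuclease that trims the 5′ ends of fragments, measured 14.1 and 11.9 CPM in FBS, 4.94 and 4.34 in MS−, and 5.59 and 3.67 in MS+. Neither rat serum overlapped FBS, and Fen1 fell 2.81-fold in MS+ (-1.33 (SE 0.23, adjusted p 0.0207) on the log2 scale) and 2.804-fold in MS− (-1.31 (SE 0.23, adjusted p 0.0296)). Exo1, a nuclease also used in mismatch repair, had 20 and 25 reads in FBS, 2 and 2 in MS−, and 6 and 2 in MS+. It fell by -1.48 (SE 0.31, adjusted p 0.0319) in MS+ and -1.78 (SE 0.31, adjusted p 0.0264) in MS−; with 2 reads in each MS− library, this size depends on the pseudocount, and the gene met the filter in FBS alone. Rnaseh2a, the catalytic subunit of RNase H2, overlapped FBS in both sera, with log2 fold changes of -0.20 and -0.14. Lig1, the ligase that seals the fragments, had 3 and 2 reads in FBS, 1 and 1 in MS−, and 0 and 0 in MS+. All of these are at or under the floor of 3 reads, so a difference was not detectable at this depth, and overlapping rows of the same symbol, whose shared reads are dropped, make its level uncertain.

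The origin recognition subunits did not move together. In each serum 0 of 6 passed without the block, where 9.61% of all features did in MS+ and 4.81% in MS−. In a list of this length a count of 0 is near those shares. Orc1, the subunit known to cycle and to recruit the rest, had 3.601 and 3.98 CPM in FBS, 1.28 and 1.63 in MS−, and 1.44 and 2.39 in MS+. All rat serum libraries were below FBS, with log2 fold changes of -0.74 (SE 0.27, adjusted p 0.1297) in MS+ and -0.97 (SE 0.27, adjusted p 0.1002, and 0.0175 when blocked by rat) in MS−. Orc6 had 7.203 and 8.12 CPM in FBS, 2.56 and 4.52 in MS−, and 2.52 and 4.77 in MS+, again all below FBS, with -0.94 (SE 0.32, adjusted p 0.119, and 0.00815 when blocked by rat) in MS+ and -0.96 (SE 0.32, adjusted p 0.156, and 0.00927 when blocked by rat) in MS−. Orc4 was higher in each rat serum library than in FBS, at 26.7 and 31.3 CPM in FBS, 37.9 and 44.8 in MS−, and 40.5 and 41.8 in MS+, with log2 fold changes of 0.50 (SE 0.14, adjusted p 0.0728, and 0.00638 when blocked by rat) and 0.50 (SE 0.14, adjusted p 0.103, and 0.0085 when blocked by rat). Orc2 was high in MS+ alone, at 14.9 and 20.1 CPM in FBS, 14.8 and 18.1 in MS−, and 27.4 and 23.5 in MS+; the log2 fold change from FBS was 0.53 (SE 0.19, adjusted p 0.134, and 0.0294 when blocked by rat) in MS+ and -0.07 in MS−, where the libraries overlapped those of FBS. Orc3 and Orc5 ranged over 18.2 to 22.1 and 16.03 to 24.9 CPM in the 6 libraries and passed in neither comparison.

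All 7 genes of helicase activation had log2 fold changes below 0 in both sera, and the medians were -1.20 and -1.01. Of all 9820 features, 4904 were below 0 in MS+ and 4722 in MS−. Without the block 2 of the 7 were called lower in each serum, against 4.66% and 2.72% of all features. Cdc45, which joins MCM and GINS in the active helicase, lies on an unplaced part of chromosome 11 in rn4 and had 18 and 29 reads in FBS, 1 and 5 in MS−, and 4 and 7 in MS+. The rat serum libraries were all below FBS, the only condition in which Cdc45 and Gins1 met the filter. The log2 fold change was -1.27 (SE 0.36, adjusted p 0.0738, and 0.003499 when blocked by rat) in MS+ and -1.67 (SE 0.36, adjusted p 0.0499) in MS−. Gins4 had 5.402 and 5.64 CPM in FBS, 1.098 and 1.45 in MS−, and 1.08 and 2.02 in MS+, and fell by -1.38 (SE 0.27, adjusted p 0.02797) in MS+ and -1.52 (SE 0.27, adjusted p 0.0296) in MS−. Gins2 had 16.4 and 11.1 CPM in FBS, 9.33 and 7.41 in MS−, and 7.93 and 7.34 in MS+, with -0.75 (SE 0.23, adjusted p 0.0902, and 0.00917 when blocked by rat) and -0.64 (SE 0.23, adjusted p 0.178, and 0.0296 when blocked by rat). Gins1 had few reads outside FBS, at 24 and 17 reads in FBS, 1 and 4 in MS−, and 6 and 2 in MS+, with -1.36 (SE 0.35, adjusted p 0.0567, and 0.00581 when blocked by rat) and -1.60 (SE 0.35, adjusted p 0.0515, and 0.002599 when blocked by rat). Gins3 had 5 to 17 reads and passed in neither.

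Dbf4, the activator of the CDC7 kinase, measured 12.3 and 11.1 CPM in FBS, 4.39 and 6.33 in MS−, and 4.14 and 4.96 in MS+. It fell in MS+ by -1.20 (SE 0.22, adjusted p 0.0244) and was at -1.01 (SE 0.22, adjusted p 0.0554, and 0.00382 when blocked by rat) in MS−, with no overlap with FBS in either. Cdc7 itself had 8.84 and 12.3 CPM in FBS, 4.94 and 8.86 in MS−, and 4.86 and 5.87 in MS+. MS− rat 2 was as high as FBS rat 1, and the log2 fold change in MS+ was -0.85 (SE 0.29, adjusted p 0.119, and 0.00732 when blocked by rat).

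On the log2(CPM + 1) scale Uhrf1, Chaf1b and Rrm2 had the 3 largest falls in each serum. By the ratio of mean CPM Chaf1b came in place 1 in MS+ and 3 in MS−, and Uhrf1 in place 6 in both. Uhrf1, which reads hemimethylated DNA behind the fork and brings in DNMT1 (on an unplaced contig of rn4), measured 15.1 and 18.4 CPM in FBS, 2.195 and 3.796 in MS−, and 4.68 and 4.77 in MS+. It was 5.59-fold lower in MS− and 3.54-fold lower in MS+ than in FBS. The log2 fold change was -2.17 (SE 0.25, adjusted p 0.00661) in MS− and -1.62 (SE 0.25, adjusted p 0.0137) in MS+. The call in MS− held under every alternative run (adjusted p 1.23e-06 to 0.0498), and that in MS+ was lost when any library of FBS or MS+ was left out (1.05e-05 to 0.0903). Dnmt1, the maintenance methyltransferase, differed far less, at 44.9 and 51.4 CPM in FBS, 32.6 and 36.5 in MS−, and 34.2 and 33.2 in MS+. It was lower in every rat serum library, with log2 fold changes of -0.50 (SE 0.13, adjusted p 0.0555, and 0.00609 when blocked by rat) and -0.47 (SE 0.13, adjusted p 0.0938, and 0.0121 when blocked by rat). Chaf1b, the middle subunit of CAF-1, had 6.71 and 9.12 CPM in FBS, 1.65 and 0.542 in MS−, and 0.901 and 1.101 in MS+, which is 3 to 9 reads in a rat serum library. It fell by -2.14 (SE 0.33, adjusted p 0.0133) in MS+ and -2.13 (SE 0.33, adjusted p 0.0181) in MS−, having met the filter in FBS alone.

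Slbp, which binds the ends of replication-dependent histone mRNAs, was at 19.5 to 24.4 CPM in all 6 libraries, and its second row on another chromosome makes it uncertain. Ung, the glycosylase that removes uracil from DNA, was at 8.12 to 11.1 CPM. Neither passed in any comparison, with log2 fold changes from FBS of -0.20 and -0.08 in MS+ and 0.05 and 0.04 in MS−. In all, 10 of the 43 tested genes were called in neither comparison with FBS, with or without the block: Dut, Pole2, Rfc1, Rpa3, Rnaseh2a, Orc3, Orc5, Gins3, Slbp and Ung. With the block, 28.2% of all features were called in MS+ against FBS and 20.5% in MS−. The share of all features called in neither was not counted.

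Between the rat sera the values of the set were spread about 0. In MS+ against MS−, 0 of the 43 genes passed in limma without the block (0.0204% of all features did), and 6 were at an unadjusted p under 0.05, against 14.7% of all features. The median log2 fold change was 0.00, with 21 above 0 and 22 below, and with 1 library left out it lay between -0.01 and 0.10. Both MS+ libraries were above both MS− libraries for 11 genes and below for 8, against 22.6% and 23.1% of all features. With the rat as a block 2 genes were higher, Rrm2 and Orc2 (10.1% of all features were called, 5.27% higher). DESeq2 called 1, Rrm2 (1.25% of all features), and edgeR 0 (0.0305%). The study rule called 1, Rrm2 (1.24% of all features), which was lost without MS+ replicate 2, while without MS− replicate 1 it called 2.

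Rrm2 rose with the block from MS− to MS+ (2.34-fold), by 1.12 (SE 0.17, adjusted p 0.09998, and 0.000348 when blocked by rat) on the log2 scale; the difference was 0.96 in rat 1 and 1.28 in rat 2. The other 3 nucleotide enzymes tested also had higher values in MS+ in both rats, without passing: the log2 fold change was 0.36 (SE 0.18, adjusted p 0.437) for Rrm1, 0.25 (SE 0.15, adjusted p 0.521) for Tyms and 0.60 (SE 0.43, adjusted p 0.588) for Dut. Orc2 rose with the block, at 0.60 (SE 0.19, adjusted p 0.238, and 0.0342 when blocked by rat), and the difference was 0.84 in rat 1 and 0.36 in rat 2. Pcna had lower values in MS+ in both rats, at -0.30 (SE 0.12, adjusted p 0.311). Further genes at an unadjusted p under 0.05 were Pola2, higher in MS+ at 0.50, and Pold2 and Rpa1, lower at -0.34 and -0.53.

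The other genes of the set followed no common direction between the rat sera. Uhrf1 was at 0.55 (SE 0.25, adjusted p 0.376), Cdc45 at 0.40 (SE 0.36, adjusted p 0.669) and Orc1 at 0.23 (SE 0.27, adjusted p 0.745), with higher values in MS+ in both rats. Pole was at 0.10 (SE 0.23, adjusted p 0.898) and Fen1 at -0.02 (SE 0.23, adjusted p 0.979); both overlapped between the sera, and the sign of Fen1 turned under DESeq2. Prim1 was at -0.16 (SE 0.17, adjusted p 0.722) and Gins2 at -0.11 (SE 0.23, adjusted p 0.878), with lower values in MS+ in both rats but overlapping libraries.

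**Figure D4:**
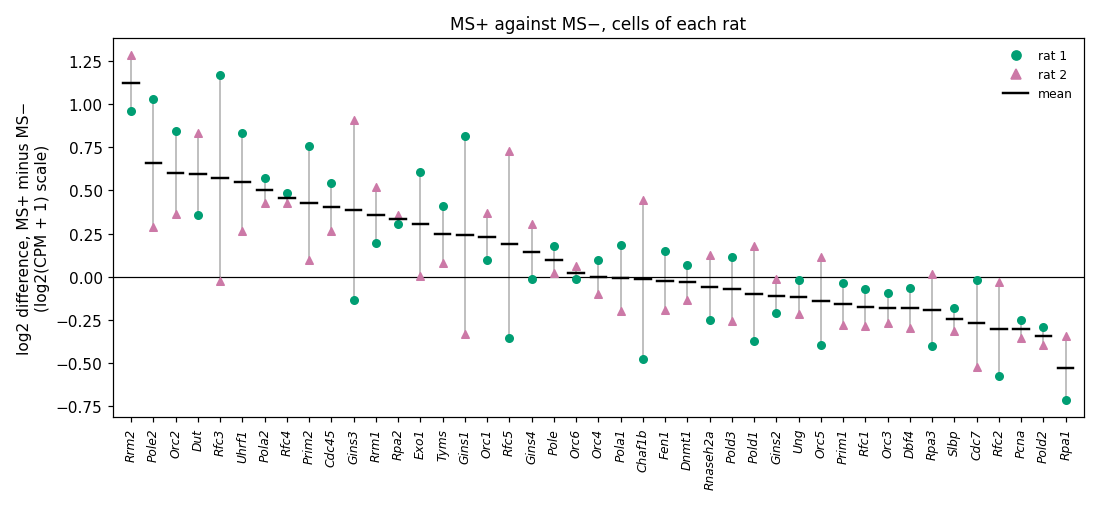
Log2 difference between MS+ and MS− on the log2(CPM + 1) scale (y axis) for the 43 tested genes (x axis), in cells of rat 1 (circles) and rat 2 (triangles), with the mean as a black bar. Rrm2 stands at the top with a mean of 1.12, 21 means lie above 0 and 22 below, and for 16 genes the rats lie on opposite sides of 0.

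Other genes of the pathway, taken from lists of known function, give the surroundings. Their counts stand beside 4.66% of all features lower and 4.95% higher in MS+, and 2.72% and 2.09% in MS−, and sizes within a list are ordered on the log2(CPM + 1) scale, on which low genes come out smaller. Of the MCM helicase and its licensing factors, 9 of 10 were called lower in each serum, with a median log2 fold change of -1.46 in MS+ and -1.87 in MS−. Cdc6, among the 9 in each serum, met the filter in FBS alone and so could enter the tests only by being high there. Mcm5, an MCM ring subunit, fell most in both sera on that scale (Cdc6 came before it by the ratio of mean CPM, with 2 reads in each MS− library), by -2.14 (SE 0.23, adjusted p 0.00555) in MS+ and -3.33 (SE 0.23, adjusted p 0.00185) in MS−. No gene of this list was above FBS; the smallest differences were Gmnn, the licensing inhibitor, in MS+ at -0.50 (SE 0.28, adjusted p 0.305) and Mcm2 in MS− at -0.67 (SE 0.18, adjusted p 0.0892, and 0.00293 when blocked by rat). Between MS+ and MS− 0 passed without the block, and with it 2 were higher; Mcm5 was at 1.18 (SE 0.23, adjusted p 0.126, and 0.00487 when blocked by rat) and Mcm2 at -0.46 (SE 0.18, adjusted p 0.305).

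Of 16 other replication factors tested (of 23 listed), 6 were called lower in each serum and 0 higher, with medians of -0.42 and -0.30. Clspn, the fork checkpoint mediator claspin, fell most on that scale (Chtf18 came before it in MS+ by the ratio of mean CPM), by -1.68 (SE 0.30, adjusted p 0.02196) in MS+ and -2.62 (SE 0.30, adjusted p 0.00661) in MS−. Pold4, the small subunit of polymerase delta, had the largest positive value, 0.31 (SE 0.18, adjusted p 0.305) in MS+ and 0.44 (SE 0.18, adjusted p 0.213, and 0.0333 when blocked by rat) in MS−. Between MS+ and MS−, Top2a, the mitotic topoisomerase, had the largest positive value, 1.11 (SE 0.28, adjusted p 0.1699, and 0.000409 when blocked by rat), and Top2b the largest negative one, -0.25 (SE 0.09, adjusted p 0.293).

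Of 28 other nucleotide enzymes tested (of 31), 1 was called lower and 2 higher in MS+ and 2 lower in MS−, counts near the shares over all features, with medians of -0.16 and -0.11. Dctpp1, a dCTP pyrophosphatase, fell most in both, by -1.45 (SE 0.30, adjusted p 0.0304) and -1.68 (SE 0.30, adjusted p 0.0291). It met the filter in FBS alone and so could enter the tests only by being high there. It had 7 and 4 reads in MS− and 5 and 10 in MS+. Ctps2, a CTP synthase, rose in MS+ by 0.71 (SE 0.13, adjusted p 0.0246) and was at 0.54 (SE 0.13, adjusted p 0.0745, and 0.00614 when blocked by rat) in MS−. Between MS+ and MS−, the mitochondrial folate enzyme Mthfd2 was at 0.73 (SE 0.15, adjusted p 0.138, and 0.00139 when blocked by rat) and the nucleoside transporter Slc29a1 at -1.04 (SE 0.30, adjusted p 0.208, and 0.00162 when blocked by rat).

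Repair polymerases and ligases were called lower in 0 of 13 cases in either serum, and 1, Rev1, a translesion polymerase, rose in MS− by 0.61 (SE 0.12, adjusted p 0.0444). In a list of this length these counts are near the shares over all features. The median of this list was 0.03 in MS+ and 0.21 in MS−. Polq had the largest negative values, -0.69 (SE 0.30, adjusted p 0.191) and -0.43 (SE 0.30, adjusted p 0.462), and Lig3 the largest positive value in MS+, 0.40 (SE 0.13, adjusted p 0.109, and 0.0211 when blocked by rat). Between MS+ and MS−, Lig3 was at 0.19 (SE 0.13, adjusted p 0.581) and Poli at -0.49 (SE 0.23, adjusted p 0.394), and 0 passed in either fit.

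Among 12 tested regulators of the E2F and RB families and their partners (of 19), 4 were called lower in each serum, with medians of -0.07 and -0.17. Mybl2, the S phase Myb factor, fell most on the same scale (E2f7 came before it in MS− by the ratio of mean CPM), by -1.62 (SE 0.19, adjusted p 0.00689) in MS+ and -2.40 (SE 0.19, adjusted p 0.00207) in MS−. The largest positive values were those of E2f6 in MS+, at 0.52 (SE 0.14, adjusted p 0.0716, and 0.00283 when blocked by rat), and of Rb1, the retinoblastoma gene, in MS−, at 0.48 (SE 0.12, adjusted p 0.0841, and 0.00341 when blocked by rat). Between MS+ and MS−, Foxm1 was at 0.81 (SE 0.25, adjusted p 0.229, and 0.0112 when blocked by rat) and Rbl1 at -0.23 (SE 0.17, adjusted p 0.589). All 7 mitosis genes tested (of 10) fell in both sera, with medians of -1.30 and -2.39; Plk1 fell most in MS+, by -1.90 (SE 0.27, adjusted p 0.0112), and Ccna2 in MS−, by -2.74 (SE 0.19, adjusted p 0.00185). Bub1 had the smallest falls, -1.01 (SE 0.15, adjusted p 0.0119) and -1.81 (SE 0.15, adjusted p 0.00238).

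Between the rat sera, the mitosis genes are given beside the DNA synthesis genes and the other lists. The 7 mitosis genes had a median of 0.96 in MS+ against MS−; none was called in limma without the block (all 7 were at an unadjusted p under 0.05, and 0 passed), and all 7 were called higher with it (5.27% of all features were), from Plk1 at 0.78 (SE 0.27, adjusted p 0.266, and 0.0283 when blocked by rat) to Ccna2 at 1.24 (SE 0.19, adjusted p 0.108, and 0.00105 when blocked by rat). In the 43 DNA synthesis genes the median was 0.00, and 2 were called with the block. For MCM and licensing the median was 0.41, with 2 of 10 called higher with the block. The other replication factors had 0.05 and 3 of 16 higher, and the E2F and RB regulators 0.16 and 3 of 12. The other nucleotide enzymes had 0.04, with 4 of 28 higher and 1 lower (10.1% of all features were called in either direction). Repair polymerases and ligases had -0.26 and 0 calls. A difference between the lists was not tested.

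**Figure D5:**
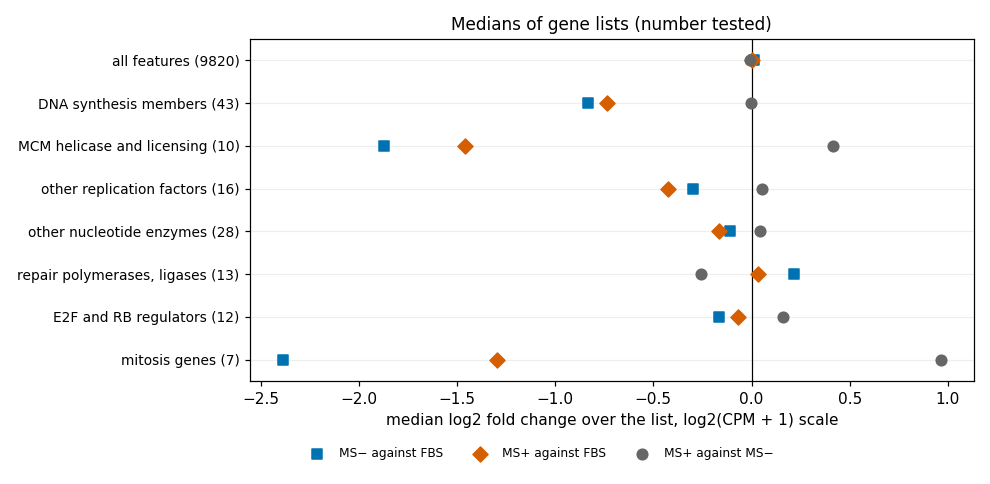
Median log2 fold change (x axis, log2(CPM + 1) scale) of each gene list with the number tested, for MS− against FBS (squares), MS+ against FBS (diamonds) and MS+ against MS− (circles). All features lie at 0, the DNA synthesis set lies at -0.74 and -0.84 against FBS and at 0.00 between the rat sera, and the mitosis genes lie at 0.96 in the last comparison.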

How the data were processed

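The authors had poly(A)-selected RNA sequenced commercially, with low-quality reads removed by the provider. The authors aligned reads to rat genome rn4 with Bowtie2 2.1.0 and counted them per transcript with HTSeq 0.5.4p3 (versions per the submitters' processing notes); strand use was not stated. HTSeq drops reads shared by overlapping rows. The deposited values are counts divided by TMM-scaled library sizes, a normalized signal in CPM. Whole reads were recovered from them within 1e-06 reads. The libraries held 5463316 to 5991889 reads.

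Differences were tested with limma 3.58.1 in R 4.3.3 (lmFit, eBayes with trend, two-sided) on log2(CPM + 1) over the 9820 features with at least 1 CPM in both libraries of a condition, in 1 model of all 6 libraries that held the serum condition alone. A gene was called at a Benjamini-Hochberg adjusted p under 0.05 over all features. Replicate numbers were taken to pair the libraries, since the sample descriptions carry the same source codes, RA1 and RA2, in each condition; that a code is 1 rat was read from them and is not stated. The difference between the rats correlated across features by 0.62, 0.49 and 0.59 between conditions, so values from a model that adds the rat as a block stand beside the others wherever a call changes. Nothing says that the cultures of a rat were repeated, so p-values measure the spread between these libraries. Alternatives were other scalings, a pseudocount of 0.1, no filter, edgeR 4.0.16 and DESeq2 1.42.0 on recovered reads, limma-voom and leaving out each library. The tests were checked on simulated data.

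Each gene of the set called in any comparison with or without the block, and a fixed list (Pcna, Rrm1, Rrm2, Tyms, Tk1, Dut, Cdc45, Uhrf1, Gins2, Orc1, Prim1, Pole, Fen1, Lig1), is given with its values; each pathway list is given by counts and its largest rise and fall. The genes and lists were chosen with earlier results of these data known. Coordinates of genes are those of rn4 as deposited; promoters are from RefSeq (GRCr8).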

Additional observations from a re-analysis of the deposited data

How the results depend on the processing

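The counts of called genes depended on the fit more than the sizes did. With the replicate block the count rose from 15 to 28 for MS+ against FBS (all features 9.61% to 28.2%). For MS− against FBS it rose from 12 to 28 (4.81% to 20.5%). Between the rat sera it rose from 0 to 2 (0.0204% to 10.1%). The block in edgeR gave 28, 29 and 2, against 29.0%, 21.0% and 10.1% of all features. Without the filter on low values, where 12654 features were tested, the counts against FBS were 9 and 6 (4.63% and 2.02% of all features). DESeq2 called 1 between the rat sera (1.25% of all features). The study-rule count for MS− against FBS rose from 13 to 21 with a pseudocount of 0.1, edgeR, limma-voom or edgeR with the block, and between the rat sera from 1 to 2 with edgeR, with or without the block. The median log2 fold change moved from -0.74 to -0.81 (edgeR, with or without the block) and -0.82 (DESeq2) for MS+ against FBS, and from -0.84 to -0.97 (pseudocount 0.1 and limma-voom), -0.98 (edgeR, with or without the block) and -0.99 (DESeq2) for MS−. With 1 library left out, counts were 0 to 14, 2 to 8 and 0 to 0 in MS+ against FBS, MS− against FBS and MS+ against MS−, study-rule counts 13 to 15, 13 to 16 and 0 to 2, and medians -0.79 to -0.64, -0.86 to -0.75 and -0.012 to 0.096. The cause of these moves was not tested.

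Of 1092 values of single genes under alternatives, 878 kept their direction and side of the threshold, 68 passed where they had not, 136 no longer passed and 10 changed sign. None of the sign changes was in a called value. Between the rat sera, Fen1 turned to 0.0059 under DESeq2. With 1 library left out, MS+ against MS− ranged from -0.27 to 0.23 for Fen1, -0.33 to 0.0087 for Prim1, -0.13 to 0.32 for Pole, -0.0037 to 0.47 for Orc1 and -0.26 to 0.037 for Gins2, and MS− against FBS from -0.73 to 0.33 for Dut. Depth limits Dut, Pole2, Lig1, Exo1, Orc1, Gins1, Gins3, Gins4, Cdc45 and Chaf1b, which had fewer than 10 reads in at least 1 library.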
